A study of Mus musculus with 1307 samples.

Results

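The caveolin and cavin genes were followed across single cells of the mouse heart. They were the caveolins Cav1, Cav2 and Cav3, the cavins Cavin1, Cavin2 and Cavin3, and the accessory genes Ehd2 and Pacsin2, taken by symbol, and all 8 were found among the 46517 gene rows of the count table. The table covered cells of 8 adult mice, sorted singly into 384-well plates after dissociation of the heart and sequenced with Smart-Seq2, a full-length protocol that counts reads and carries no molecular identifiers. The ACTA2GFP:CSPG4dsRED group, called double-reporter here, gave 72.6% of all cells, from 3 mice sorted on a plate each. In its name stand Acta2, the smooth muscle actin gene, with a green reporter, and Cspg4, a gene of mural cells, with a red reporter. The ACTA2GFP group gave 3 cells from 1 mouse, the CSPG4dsRED group 3 cells from 1 mouse, and the C57BL/6 group, which carries no reporter in its label, 26.9% of all cells, from 3 mice, all but 5 of them from mouse 1. The age was given as 8 to 30 weeks for every mouse. The design text speaks of male mice, whereas the label of double-reporter mouse 3 is female, and the 3 ACTA2GFP cells, which share 1 mouse number, carry labels of both sexes. No source used here gives the sort gates or says whether the reporters set them.

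Caveolae are small flask-shaped pits of the plasma membrane, abundant in endothelium, smooth muscle, adipocytes and striated muscle. Caveolin proteins insert into the inner leaflet and oligomerise, and cavins assemble as a coat around them, with Cavin1 required for the pit to form in any of these tissues. EHD2 encircles the neck of the pit and holds it at the surface, and pacsin 2 is a membrane-bending protein that takes part in its shaping. Cav3 is the caveolin of striated muscle and also occurs in some smooth muscle.

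In the gene models of build GRCm38, Cav1 lies at chr6:17306335-17341452 and Cav2 next to it at chr6:17281185-17289115, both on the plus strand, and Cav3 lies on the same chromosome at chr6:112459505-112472872. Cavin1 lies at chr11:100956733-100970887 on the minus strand, Cavin2 at chr1:51289126-51302960 on the plus strand and Cavin3 at chr7:105480083-105482300 on the minus strand. Ehd2 lies at chr7:15946958-15967567 and Pacsin2 at chr15:83375607-83464606, both on the minus strand. Exons of Cavin3 overlap those of Gm45667 on the opposite strand, and no source used here gives the strand setting of the counting, so reads of the pair cannot be told apart. The other 7 members share no exonic base with another gene in the annotation.

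RefSeq promoter windows, from 250 bases before to 50 after the annotated start, were found for 7 of the 8 members, all but Cavin3. Cav1 and Cavin1 had 2 windows each and Pacsin2 had 3, and only the first listed for each gene was searched. These first windows are shown for the neighbours Cav1 and Cav2, for Cavin1, and for Cavin2. Cavin2 is the member whose change between smooth muscle-like and pericyte-like cells had the opposite sign to the other 7. Capitals mark GGGCGG, the core of the GC box, or its reverse complement CCGCCC. The windows are on build GRCm38.p6, at chr6:17306085-17306384 for Cav1, chr6:17280935-17281234 for Cav2, chr11:100970568-100970867 on the minus strand for Cavin1 and chr1:51288876-51289175 for Cavin2.
Cav1: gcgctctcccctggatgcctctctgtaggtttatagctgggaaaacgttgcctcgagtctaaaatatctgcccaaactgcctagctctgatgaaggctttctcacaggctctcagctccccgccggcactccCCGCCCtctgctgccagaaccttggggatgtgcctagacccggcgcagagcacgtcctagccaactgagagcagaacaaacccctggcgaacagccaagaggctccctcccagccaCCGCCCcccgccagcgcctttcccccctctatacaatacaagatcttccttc
Cav2: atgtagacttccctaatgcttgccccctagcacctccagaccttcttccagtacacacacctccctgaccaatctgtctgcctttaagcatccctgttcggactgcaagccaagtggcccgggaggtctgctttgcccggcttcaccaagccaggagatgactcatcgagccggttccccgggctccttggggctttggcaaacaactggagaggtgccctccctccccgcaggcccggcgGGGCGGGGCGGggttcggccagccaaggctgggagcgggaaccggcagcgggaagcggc
Cavin1: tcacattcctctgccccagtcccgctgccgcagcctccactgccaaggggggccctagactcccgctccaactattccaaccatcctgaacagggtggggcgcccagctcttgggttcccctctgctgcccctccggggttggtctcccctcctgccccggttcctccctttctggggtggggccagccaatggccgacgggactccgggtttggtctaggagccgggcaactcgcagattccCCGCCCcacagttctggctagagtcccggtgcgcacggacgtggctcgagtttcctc
Cavin2: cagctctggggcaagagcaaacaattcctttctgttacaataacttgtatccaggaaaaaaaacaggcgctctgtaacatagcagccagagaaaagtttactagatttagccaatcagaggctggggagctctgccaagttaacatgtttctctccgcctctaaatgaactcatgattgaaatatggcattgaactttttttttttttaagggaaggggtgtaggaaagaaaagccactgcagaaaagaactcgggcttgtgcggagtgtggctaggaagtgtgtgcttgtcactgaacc
GGGCGG was found on either strand 2 times in the windows of Cav1, Cav2, Ehd2 and Pacsin2, counting overlaps, 1 time in that of Cavin1, and 0 times in those of Cavin2 and Cav3. It was present in 35.9% of 27025 mouse promoter windows of the same length, again the first listed for each gene. The CArG box, the motif of serum response factor at many smooth muscle genes, was found in none of the 7 windows searched and in 1.57% of the 27025. The further windows of Cav1, Cavin1 and Pacsin2 were not searched for either motif.

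Cells were grouped by clustering with the members, the marker genes and Rgs5 withheld, and clusters were named from marker lists. Of all cells 17.4% were smooth muscle-like, 5.66% pericyte-like, 34.1% fibroblast-like, 5.89% Schwann-like and 10.5% capillary endothelial-like, and there were 15 arterial endothelial-like, 71 endocardial-like, 14 lymphatic endothelial-like and 40 macrophage-like cells. Clusters 5 and 6 were left unnamed. Cluster 5, with 7.96% of cells, raised 10 of 10 endothelial and 9 of 10 cardiomyocyte markers, and cluster 6, with 7.73%, raised 6 of 9 smooth muscle and 5 of 8 pericyte markers. Total counts per cell ran between 50476 and 811982 with a median of 274702. Smooth muscle-like cells carried 20765, 26944 and 21434 CPM (counts scaled to a total of 1000000) of 9 smooth muscle markers in double-reporter mice 1, 2 and 3, against 3018, 2705 and 4109 CPM in pericyte-like cells. The mural, fibroblast and Schwann classes came mostly from the double-reporter mice, and the endothelial classes almost wholly from C57BL/6 mouse 1, so that strain and class cannot be told apart between these 2 sets. Comparisons were therefore tested among classes of the double-reporter mice, on counts summed per mouse and class, with the mouse as replicate. All 8 members passed the filter on low counts in each fit.

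Cav1, the caveolin that forms the pit in non-muscle tissue and in smooth muscle, set smooth muscle-like cells apart from pericyte-like cells in every mouse. It reached 1560.1, 1792 and 1220.0 CPM in the smooth muscle-like sums of double-reporter mice 1, 2 and 3, against 127.97, 260.6 and 90.6 CPM in the pericyte-like sums. The groups did not overlap, and the lowest smooth muscle-like sum lay far above the highest pericyte-like one. The share of all genes whose sums did not overlap was not counted, so a lack of overlap, here and below, is a description only. The log2 change was 3.45 ± 0.41 (SE), with an adjusted p of 0.0023 (edgeR quasi-likelihood test, Benjamini-Hochberg adjusted), and lay 3.05 above the median change of all genes tested. Single cells differed even more than the sums. The median smooth muscle-like cell held 1495, 1719 and 1108 CPM of Cav1 in mice 1, 2 and 3, against 6.83, 15.98 and 0 CPM for the median pericyte-like cell. In the pericyte-like class a single cell supplied 30.8%, 65.3% and 71.3% of all Cav1 counts in mice 1, 2 and 3. In mouse 2 that cell also carried 3192 CPM of 6 endothelial markers (Pecam1, Cdh5, Kdr, Tie1, Ptprb and Flt1), and without it the pericyte-like sum fell to 96.8 CPM.

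Cav2, the partner that forms hetero-oligomers with Cav1, differed less. It stood at 376.1, 392.6 and 183.8 CPM in smooth muscle-like cells of mice 1, 2 and 3, against 160.8, 173.3 and 92.1 CPM in pericyte-like cells. The groups did not overlap, with the smooth muscle-like value of mouse 3 just above the pericyte-like value of mouse 2, and the log2 change of 1.22 ± 0.49 did not pass the test (edgeR adjusted p = 0.249; 95% interval 0.14 to 2.29). Cav1 reads thus outweighed Cav2 reads per kilobase of exon by 4.02, 4.42 and 6.43 to 1 in smooth muscle-like cells, against 0.771, 1.46 and 0.953 to 1 in pericyte-like cells.

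Among the cavins, Cavin1, the core coat component, reached 1393, 1199.8 and 825.97 CPM in smooth muscle-like cells of mice 1, 2 and 3, against 350.3, 274.2 and 391.5 CPM in pericyte-like cells. All 3 smooth muscle-like sums exceeded all 3 pericyte-like sums, and the log2 change was 1.80 ± 0.27 (edgeR adjusted p = 0.00715). Cavin3, a cavin also known as a binding partner of protein kinase C delta, showed 608.8, 637.2 and 687.7 CPM in smooth muscle-like cells and 204.2, 124.8 and 165.7 CPM in pericyte-like cells. Its groups were well separated and its smooth muscle-like values close together, with a log2 change of 2.06 ± 0.30 (edgeR adjusted p = 0.00627). Cavin2, the cavin linked to membrane curvature and to endothelial caveolae, had a change of the opposite sign. It stood at 122.8, 132.02 and 29.6 CPM in smooth muscle-like cells, against 656.5, 288.4 and 479.1 CPM in pericyte-like cells. Every pericyte-like sum was above every smooth muscle-like sum, yet the spread was wide and the log2 change of -2.57 ± 0.74 did not pass the test (edgeR adjusted p = 0.121; 95% interval -4.20 to -0.94). The median smooth muscle-like cell held 4.12, 6.89 and 0 CPM of Cavin2, against 407.8, 30.0 and 388.6 CPM for the median pericyte-like cell. The endothelial marker list was also lower in the smooth muscle-like sums, at 515.5 to 692.7 CPM over 10 genes, than in the pericyte-like sums, at 1998 to 2161 CPM, with 0 to 2 of the 10 genes at 0 in a smooth muscle-like sum and 1 to 4 in a pericyte-like sum. The 6 endothelial markers named above were lower in both classes and in no single order, at 72.7, 20.95 and 22.1 CPM in smooth muscle-like sums of mice 1, 2 and 3, against 95.7, 245.8 and 13.4 CPM in pericyte-like sums. With the cells that carried over 500 CPM of the 6 endothelial or of 5 cardiomyocyte markers left out, an alternative chosen after seeing the data, the Cavin2 change was -2.46 and the Cav1 change 4.20. The part of endothelial reads in the Cavin2 values was otherwise not tested.

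The neck ATPase gene Ehd2 stood at 749.6, 736.5 and 819.8 CPM in smooth muscle-like cells of mice 1, 2 and 3, against 524.95, 491.5 and 311.2 CPM in pericyte-like cells. The groups were separate but close, and the log2 change of 0.89 ± 0.26 did not pass the test (edgeR adjusted p = 0.124; 95% interval 0.32 to 1.46). Pacsin2, the membrane-bending partner, showed 556.03, 646.9 and 648.7 CPM in smooth muscle-like cells and 244.3, 219.9 and 321.6 CPM in pericyte-like cells. It too was higher in each smooth muscle-like sum, with a log2 change of 1.35 ± 0.31 that fell just short (edgeR adjusted p = 0.055). In all, 3 of the 8 members rose (Cav1, Cavin1 and Cavin3) and 0 fell by the edgeR test, beside 2.06% of the 16147 genes tested called in either direction, 1.47% higher and 0.595% lower. DESeq2 called 5 members higher and 1 lower, Cavin2, with a log2 change of -2.76 (DESeq2 adjusted p = 0.00592). With mouse 1 left out none of the 3 was called (Cav1 log2 change 3.26), likewise with mouse 2 left out (Cav1 log2 change 3.73), and with mouse 3 left out Cavin3 lost its call.

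**Figure D1:**
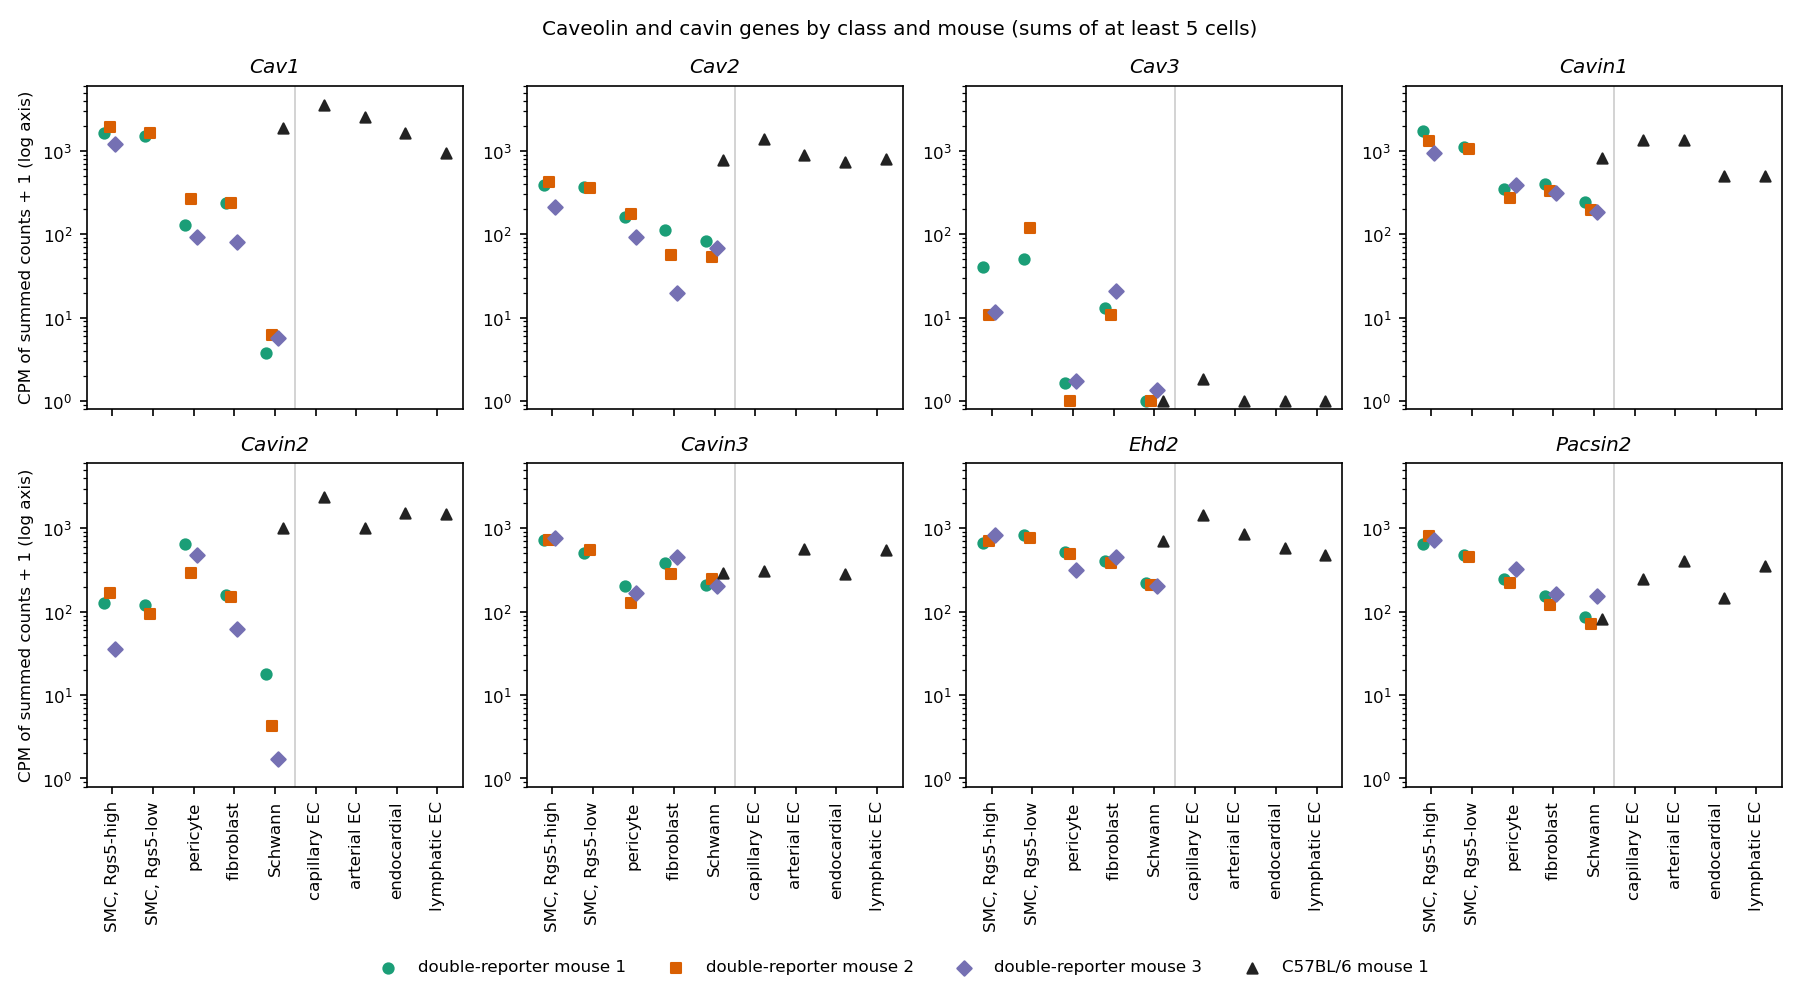
CPM of counts summed over the cells of a class and mouse, plus 1, on a log axis, for each member. Points are sums of at least 5 cells, coloured by mouse, with the double-reporter classes left of the grey line except for the C57BL/6 Schwann-like triangle, and SMC and EC stand for smooth muscle-like and endothelial-like. Cav1 separates smooth muscle-like from pericyte-like sums, and Cavin2 is highest in the endothelial classes.

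**Figure D2:**
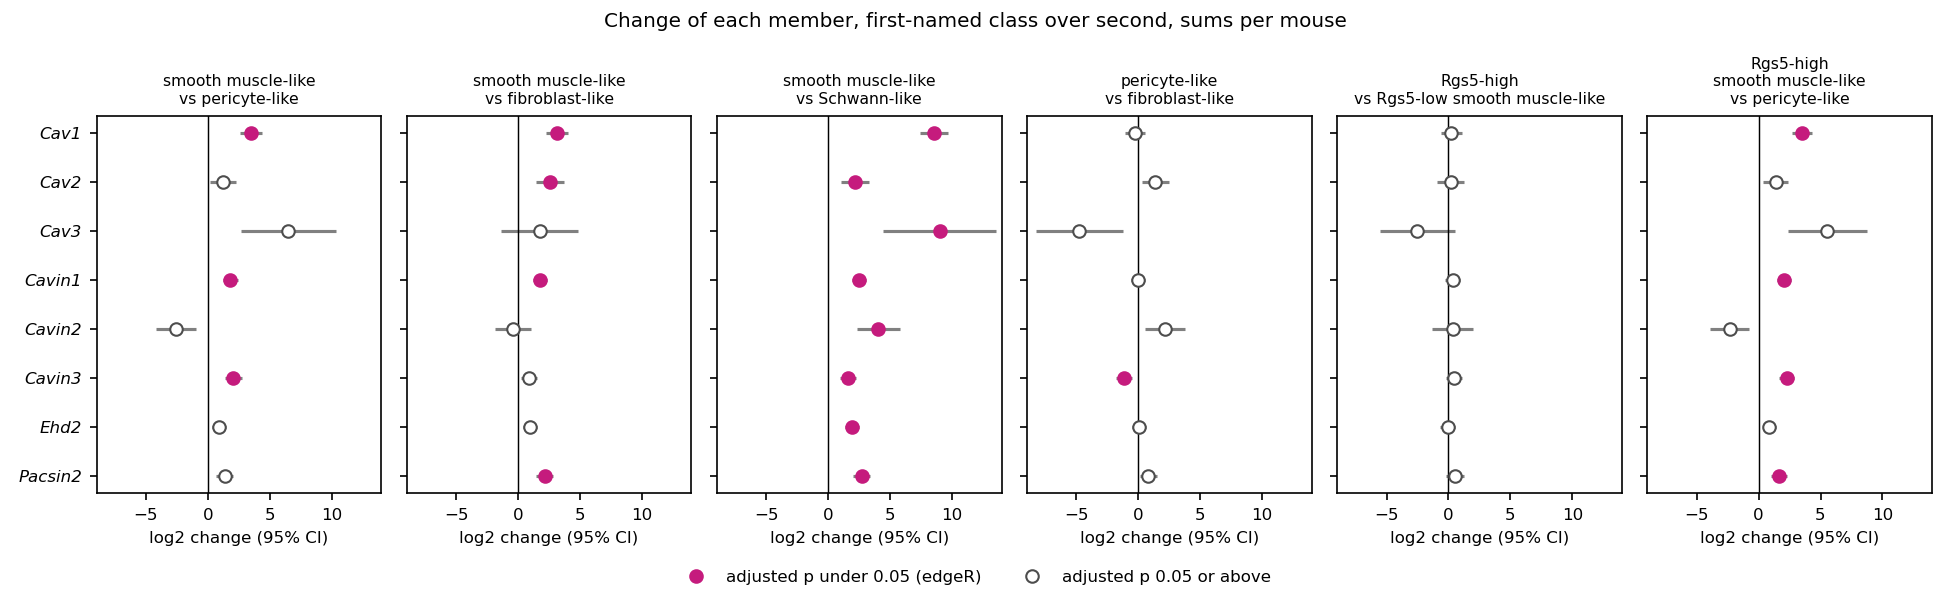
Log2 change of each member, first-named class over second, with its 95% interval, in the 6 comparisons of summed counts (edgeR). Filled points have an adjusted p under 0.05: 3 members against pericyte-like, 4 against fibroblast-like and 8 against Schwann-like cells in the smooth muscle-like comparisons, and 0 between Rgs5-high and Rgs5-low cells.

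Against fibroblast-like cells, smooth muscle-like cells held more of Cav1, Cav2, Cavin1 and Pacsin2. Cav1 stood at 237.9, 239.3 and 79.5 CPM in fibroblast-like cells of mice 1, 2 and 3, below all 3 smooth muscle-like sums given above, for a log2 change of 3.17 ± 0.40 (edgeR adjusted p = 0.00235). Cav2 stood at 110.9, 55.7 and 18.9 CPM in fibroblast-like cells, again below each smooth muscle-like sum, for a log2 change of 2.57 ± 0.51 (edgeR adjusted p = 0.024). Cavin1, at 399.2, 330.5 and 307.7 CPM in fibroblast-like cells, changed by 1.76 ± 0.27 and Pacsin2, at 151.8, 120.7 and 162.6 CPM in fibroblast-like cells, by 2.16 ± 0.32 on the log2 scale (edgeR adjusted p = 0.00589 and 0.00511). Neither gene's sums overlapped between the classes.

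The other 4 members did not pass. Cavin3 was at 386.6, 281.8 and 446.2 CPM in fibroblast-like cells and changed by 0.86 ± 0.29 (edgeR adjusted p = 0.165). Ehd2 was at 407.3, 382.1 and 448.6 CPM and changed by 0.95 ± 0.26 (edgeR adjusted p = 0.0866). Cavin2 overlapped between the classes, with 155.6, 148.3 and 61.1 CPM in fibroblast-like cells, and its interval, -1.90 to 1.08, took in 0. The 4 members called higher, and 0 lower, stand beside 2.80% of all genes called, 1.34% higher and 1.46% lower. Without mouse 2 none of the 4 was called, without mouse 1 only Cav1 was, and without mouse 3 only Cav1 and Cavin1 were. With cells over 500 CPM of the full endothelial or cardiomyocyte lists left out, 0 members were called (Cav1 log2 change 3.28, edgeR adjusted p = 0.102). That fit had 9 sums and 12288 genes, against 12 sums and 16147 genes in the main fit. The filter on 6 endothelial and 5 cardiomyocyte markers, chosen after seeing the data, kept 12 sums and called 4 members higher. In cells of at least 100000 counts and 2000 genes Cav2 lost its call.

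Within the fibroblast-like cells, Cav1, Cav2 and Cavin2 varied more between clusters than Cavin1, Cavin3 and Ehd2. Cavin2 ran from 2.37 CPM in cluster 12 to 274.6 CPM in cluster 4, both in mouse 2. The median fibroblast-like cell held 161.8, 14.8 and 2.16 CPM of Cav1 in mice 1, 2 and 3, so that mouse 3 lay lowest. In mouse 3, cluster 3, led by Smoc2, Svep1 and Dpep1, held 13.8 CPM of Cav1, and cluster 4, led by Cilp, Smoc2 and C3, held 160.4 CPM. Cluster 0, led by the matrix genes Fmod, Cilp and Angptl7, held 215.8, 208.9 and 170.7 CPM of Cav1 in mice 1, 2 and 3, a narrow range. Cluster 13, led by Scara5, Adgrd1 and Gfpt2 and found in mouse 3, was lowest with 1.70 CPM of Cav1 and 0.212 CPM of Cav2 over 15 cells. The same cluster was the highest of all fibroblast-like clusters in Cavin3, at 704.9 CPM, in Ehd2, at 633.1 CPM, and in Pacsin2, at 423.9 CPM, and it held 424.9 CPM of Cavin1. The lack of caveolin reads thus did not extend to cavin reads in these cells. Clusters 3 and 13 came mostly or wholly from mouse 3, and a cluster mostly of 1 mouse cannot be told apart from that mouse. In mouse 2, cluster 4 also carried 455.2 CPM of the mesothelial marker Upk3b, which was at 0 in that cluster in mice 1 and 3.

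**Figure D3:**
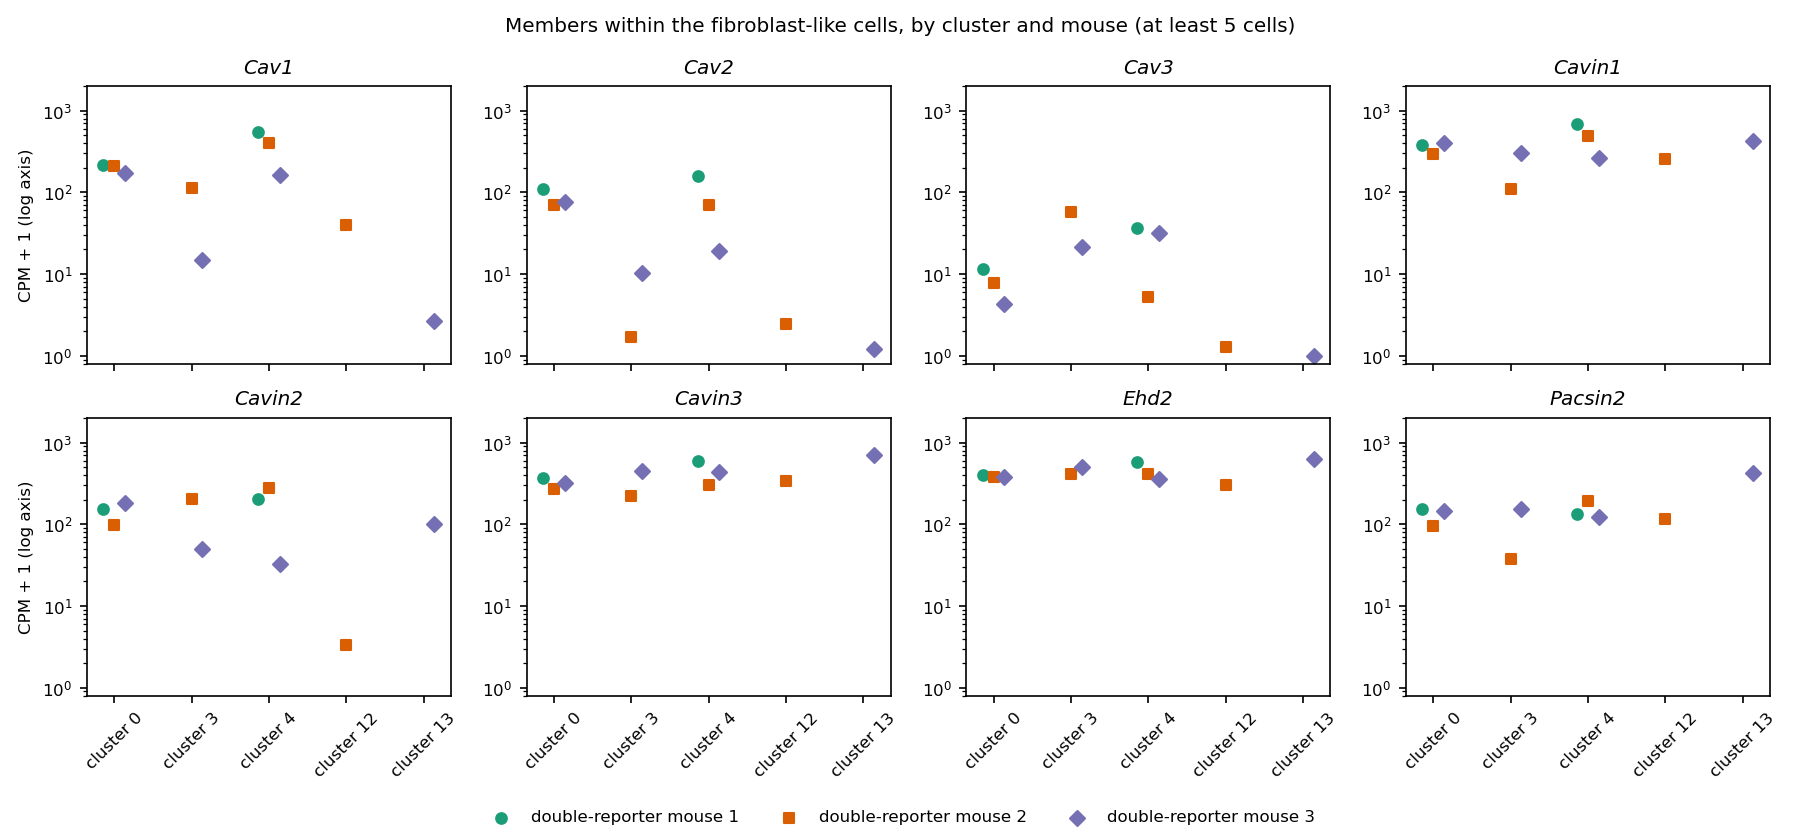
CPM plus 1 of each member, on a log axis, in the fibroblast-like clusters with at least 5 cells of a double-reporter mouse. Cav1 and Cav2 spread over more than 2 decades between clusters 4 and 13, while Cavin1, Cavin3 and Ehd2 stay within 1 decade in every sum shown. Cavin2 runs from 2.37 CPM in cluster 12 to 274.6 CPM in cluster 4.

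Between pericyte-like and fibroblast-like cells, Cav1, Cavin1 and Ehd2 did not pass the test, and their intervals took in 0. The log2 change, pericyte-like over fibroblast-like, was -0.28 ± 0.37 for Cav1 (95% interval -1.10 to 0.54), -0.04 ± 0.26 for Cavin1 (95% interval -0.61 to 0.53) and 0.06 ± 0.26 for Ehd2 (95% interval -0.51 to 0.62). The direction of each turned in 2 to 6 alternatives, RLE scaling among them for Cavin1. Cavin3 was lower in the pericyte-like sums than in each fibroblast-like sum, and its log2 change of -1.19 ± 0.29 passed narrowly (edgeR adjusted p = 0.0474), but in 11 of 17 alternatives it did not pass, RLE scaling and each omission of a mouse among them. Cavin2 was 2.15 ± 0.72 higher (edgeR adjusted p = 0.125). The 1 member called lower, and 0 called higher, stand beside 3.95% of genes called, 2.66% lower and 1.29% higher. The median of all genes was -0.56, so the Cavin3 change lay 0.63 below it.

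Schwann-like cells, the glia of cardiac nerves, held little Cav1. Cav1 was at 2.75, 5.14 and 4.73 CPM in Schwann-like cells of double-reporter mice 1, 2 and 3, all far below every smooth muscle-like sum. The log2 change, smooth muscle-like over Schwann-like, was 8.55 ± 0.52 (edgeR adjusted p = 1.92e-05). Cav2 was not as low, at 82.6, 52.05 and 67.97 CPM in the same cells, and its change was 2.15 ± 0.50 (edgeR adjusted p = 0.0255). Cavin2 stood at 17.1, 3.21 and 0.727 CPM in Schwann-like cells, for a change of 4.05 ± 0.79 (edgeR adjusted p = 0.0101).

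Cavin1 remained at 244.4, 195.3 and 184.7 CPM in the Schwann-like sums and Cavin3 at 208.4, 244.2 and 200.3 CPM, so the coat genes were read at levels far above the caveolin they bind. Per kilobase of exon, the ratio of Cav1 to Cavin1 was 1.17, 1.56 and 1.54 in smooth muscle-like cells of mice 1, 2 and 3, against 0.0117, 0.0274 and 0.0267 in Schwann-like cells. The log2 change of Cavin1 was 2.48 ± 0.27 (edgeR adjusted p = 0.000314), that of Cavin3 1.60 ± 0.29 (edgeR adjusted p = 0.00717), that of Ehd2 1.92 ± 0.26 (edgeR adjusted p = 0.00124) and that of Pacsin2 2.69 ± 0.32 (edgeR adjusted p = 0.00054). With Cav3, at 1 count in all Schwann-like cells, all 8 members rose in smooth muscle-like cells, beside 7.90% of genes called, 5.07% higher and 2.83% lower, and 5, 4 and 6 of the 8 did so with mice 1, 2 and 3 left out in turn. The full-list filter on cells, in a fit of 9 sums, left 2 members called. The filter on 6 endothelial and 5 cardiomyocyte markers, chosen after seeing the data, kept 12 sums and called 8. The deeper cells and a fit of these 2 classes alone called 6 each. The sums of double-reporter Schwann-like cells carried 1.17, 10.3 and 20.4 CPM of the 6 endothelial markers.

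The 13 Schwann-like cells of C57BL/6 mouse 1 looked different, with 1878 CPM of Cav1 and 1004 CPM of Cavin2. Of these cells 11 carried over 500 CPM of the same 6 endothelial markers, and they held 2189 CPM of Cav1, against 135.2 CPM in the 2 cells below that level. Schwann markers summed to 9070.0 CPM over 9 genes in these cells and to 13760.1, 17389.5 and 18061 CPM in those of the double-reporter mice. The part of the endothelial reads in the C57BL/6 values was not tested.

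Rgs5, a regulator of G protein signalling that marks pericytes and part of the arterial smooth muscle, split the smooth muscle-like cells at 500 CPM into Rgs5-high cells, 10.1% of all cells, and Rgs5-low cells, 7.35%. Few cells lay near the cut, with 11, 7 and 0 between 250 and 1000 CPM in mice 1, 2 and 3, and it remains a cut through a range. Rgs5-high cells were also higher in 8 pericyte markers, at 1235 and 1784 CPM in mice 1 and 2, against 173.7 and 227.4 CPM in Rgs5-low cells, and lower in fibroblast markers, at 2032 and 2342 CPM, against 4752 and 3847 CPM. The part of these in the values below was not tested. Mouse 3 had 3 Rgs5-low cells, too few for a sum.

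None of the 8 members passed the test between Rgs5-high and Rgs5-low cells, beside 0.163% of 17183 genes called, 0.0349% higher and 0.128% lower. At an unadjusted p under 0.05 the count was also 0 (edgeR), and DESeq2 and limma called 0. Cav1 stood at 1630.3, 1911 and 1210.2 CPM in Rgs5-high cells of mice 1, 2 and 3, against 1498 and 1656 CPM in Rgs5-low cells of mice 1 and 2. The groups overlapped, and the log2 change was 0.24 ± 0.39 with a 95% interval of -0.61 to 1.08. The test does not show that the cells are alike.

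Some members differed in the same direction within both mice that had the 2 kinds of cells, without passing the test. Cav1, given above, and Cav3, given below, were among them, Cav1 higher and Cav3 lower in Rgs5-high cells. The share of all genes that did so was not counted, so the shared direction is a description only. Cavin1 was at 1712, 1330.0 and 933.1 CPM in Rgs5-high cells and at 1109 and 1052 CPM in Rgs5-low cells, higher in the Rgs5-high cells within mice 1 and 2. Cavin3 was at 721.7, 721.5 and 760.6 CPM in Rgs5-high cells, against 508.3 and 541.4 CPM in Rgs5-low cells, and its change was 0.45 ± 0.30 (edgeR adjusted p = 0.954). Pacsin2 was at 648.1, 813.1 and 726.4 CPM in Rgs5-high cells, against 474.04 and 458.1 CPM in Rgs5-low cells, with a change of 0.52 ± 0.33 (edgeR adjusted p = 0.92). The smooth muscle-like clusters 1 and 9 were built without Rgs5 or the members. They divide the same cells and differ in Rgs5 too, so their values are not independent of the split. Cavin3 was at 409.2 and 373.1 CPM in cluster 9 of mice 1 and 2, against 787.3 and 754.3 CPM in cluster 1. Other members also differed, among them Cavin1, at 1268 and 999.6 CPM in cluster 9 and 1505 and 1289 CPM in cluster 1. Pacsin2 was at 335.5 and 232.8 CPM in cluster 9 and at 753.2 and 830.5 CPM in cluster 1. Cluster 9 held 220.5 and 200.2 CPM of Rgs5 in these mice, against 4300 and 5289 CPM in cluster 1. These cluster values are a description, with no test.

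**Figure D4:**
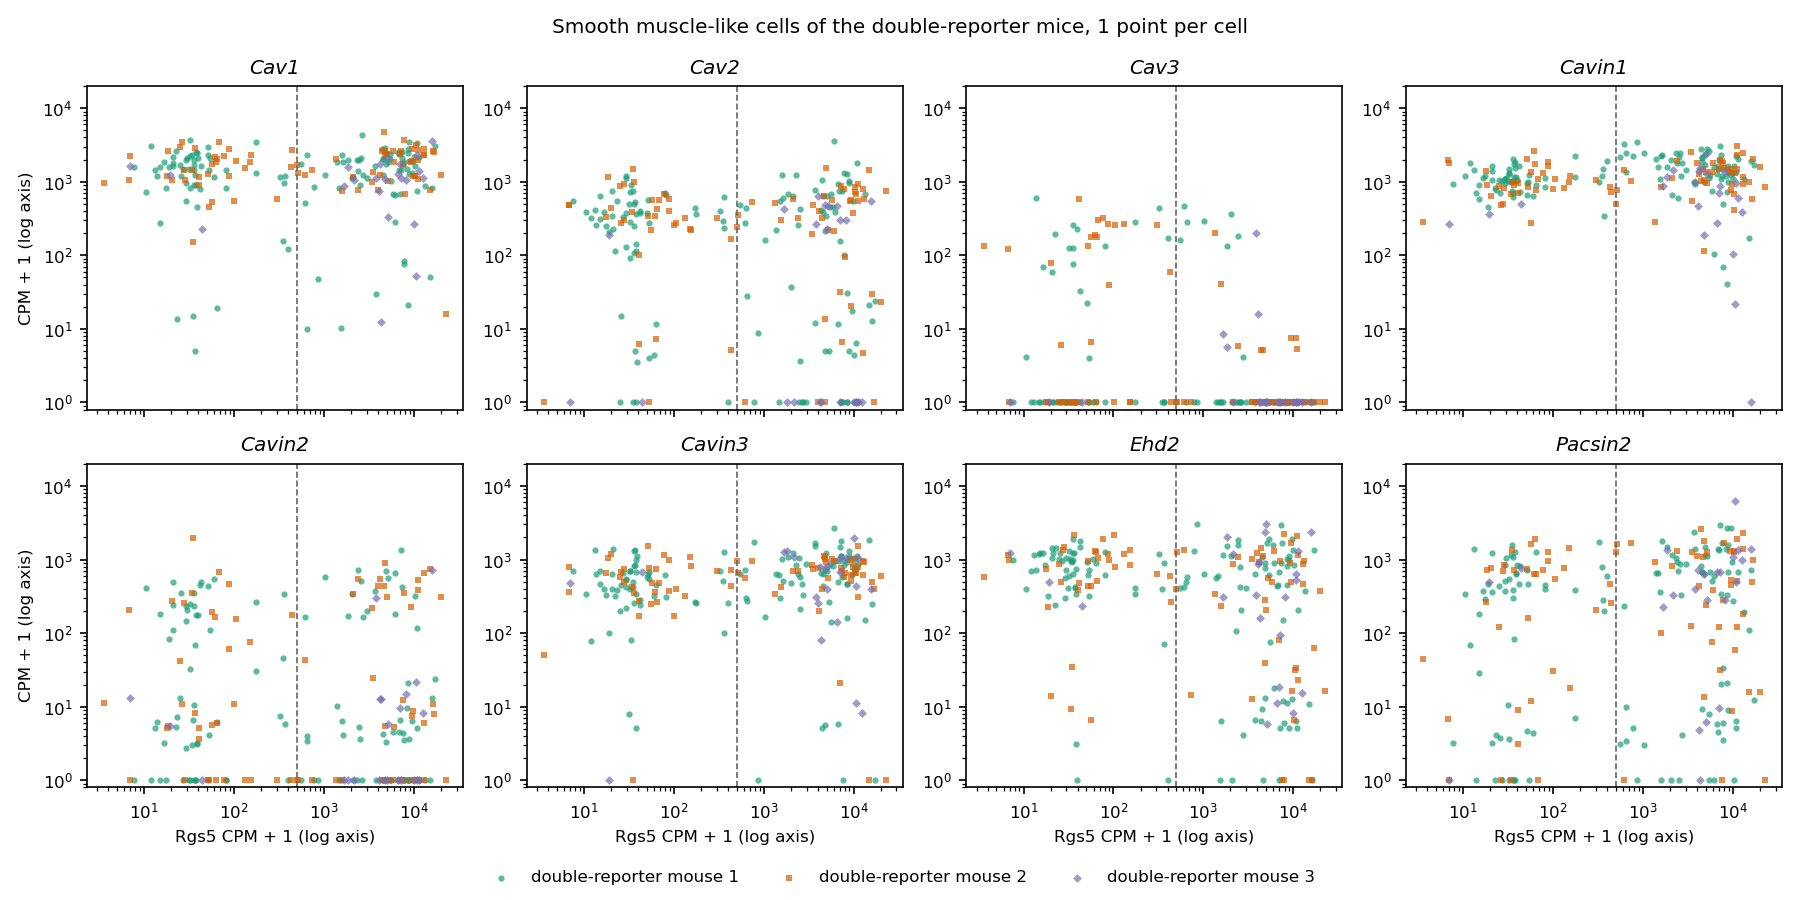
Each member's CPM plus 1 against Rgs5 CPM plus 1 in single smooth muscle-like cells of the 3 double-reporter mice, both axes log, with the 500 CPM cut dashed. Cav1 and Cavin1 lie in 1 band on both sides of the cut, whereas Cav3 is at 0 in most cells and its higher values fall mostly on the Rgs5-low side.

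Set against pericyte-like cells, which also express Rgs5, the Rgs5-high smooth muscle-like cells had more of 4 members, beside 1.88% of genes called, 1.25% higher and 0.629% lower. The log2 change was 3.52 ± 0.37 for Cav1, 2.04 ± 0.25 for Cavin1, 2.28 ± 0.27 for Cavin3 and 1.62 ± 0.29 for Pacsin2 (edgeR adjusted p between 0.000526 and 0.0139). Rgs5 itself stood at 4976, 6924 and 6502 CPM in the Rgs5-high smooth muscle-like sums of mice 1, 2 and 3, and at 6005, 9999 and 6815 CPM in the pericyte-like sums. Within each mouse Rgs5 was lower in the smooth muscle-like sum, although these cells had been chosen for high Rgs5, and the ranges over the 3 mice overlapped. Omitting mouse 2 left only Cav1 called, and omitting mouse 1 left Cav1 and Cavin3. Pacsin2 lost its call in the deeper cells and in a fit of these 2 classes alone, and DESeq2 called Cavin2 lower (log2 change -2.50, DESeq2 adjusted p = 0.00755).

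Cav3 was sparse. It had reads in 10.4% of all cells, 5369 counts in all, of which smooth muscle-like cells held 54.9% and fibroblast-like cells 35.98%. In smooth muscle-like cells of mice 1, 2 and 3 it was read in 25, 26 and 4 cells, or 20.2%, 33.8% and 17.4% of the class, with 95% Clopper-Pearson intervals of 13.5 to 28.3%, 23.4 to 45.4% and 4.95 to 38.8%. After thinning every cell to 50000 counts the shares were 17.7%, 25.97% and 13.04%. In mouse 2, 8 of 43 Rgs5-high cells had Cav3 reads, against 18 of 34 Rgs5-low cells, and in mouse 1 the numbers were 8 of 68 Rgs5-high cells and 17 of 56 Rgs5-low cells. The sums read 39.5, 9.72 and 10.8 CPM in Rgs5-high cells of mice 1, 2 and 3, against 50.2 and 119.2 CPM in Rgs5-low cells of mice 1 and 2, and the log2 change of -2.51 ± 1.38 did not pass (edgeR adjusted p = 0.85).

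Cardiac muscle is the main source of Cav3 in the heart, so cardiomyocyte reads are given beside it. The 10 cardiomyocyte markers had a median of 973 CPM in the Cav3-positive smooth muscle-like cells and of 999 CPM in all smooth muscle-like cells. Of the 58 positive cells 11 had reads of Myh6, the cardiac myosin heavy chain, and 41 of Tnnt2, cardiac troponin T. Cells without Cav3 reads were not counted for these genes, here or in the fibroblast-like class, so the numbers have no comparison. For 5 of the 10 markers (Myh6, Tnni3, Myl2, Myl3 and Nppa) the smooth muscle-like sums were far lower, at 140.95, 65.5 and 102.4 CPM in mice 1, 2 and 3, with medians of 3.04, 0 and 3.01 CPM per cell. In fibroblast-like cells the same medians over 10 markers were 17.4 CPM and 17.6 CPM, 7 and 26 of the 62 positive cells had reads of Myh6 and Tnnt2, and 1 cell alone held 39.8% of the class's Cav3 counts in mouse 3. Pericyte-like sums held 0.631, 0 and 0.743 CPM of Cav3, and the log2 change, smooth muscle-like over pericyte-like, did not pass (edgeR adjusted p = 0.0989). Summed over the 10 cardiomyocyte markers, smooth muscle-like sums held 752.7 to 1321 CPM and pericyte-like sums 125.5 to 409.5 CPM. Over the 5 markers named above, pericyte-like sums held 169.7, 128.7 and 80.2 CPM in mice 1, 2 and 3. Schwann-like sums held 128.6, 67.5 and 175.9 CPM of the same 5. The part of cardiomyocyte reads in the Cav3 values was not tested. In Schwann-like cells, which are not known to use Cav3, 0 of 34, 0 of 12 and 1 of 18 cells of mice 1, 2 and 3 had a read. Cavin4, the muscle cavin, was read in 1 smooth muscle-like cell, with 1 count, and in 3 fibroblast-like cells, with 18 counts.

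The endothelial classes came from C57BL/6 mouse 1, so their values carry no replicate and no test, and their Poisson intervals cover counting error only. Capillary endothelial-like cells held the most Cav1 of any sum, 3593 CPM (exact Poisson interval 3575 to 3611), with quartiles of 2972 and 4436 CPM between cells. Arterial endothelial-like cells held 2567 CPM (2527 to 2606), endocardial-like cells 1650.5 CPM (1633 to 1668) and lymphatic endothelial-like cells 947.1 CPM (915.2 to 979.8). The quartiles between cells were 2370 and 3171 CPM in arterial, 1117 and 2214 CPM in endocardial-like and 349.7 and 1146 CPM in lymphatic endothelial-like cells. The order ran from capillary to lymphatic, and the middle ranges of capillary and arterial cells overlapped, as did those of endocardial-like and lymphatic cells. The smooth muscle-like sums given above lay within the endocardial to lymphatic range or just over it.

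Cav2 followed Cav1 in the capillary class with 1386 CPM, but was nearly level in the other 3, at 889.3, 730.2 and 790.7 CPM in arterial, endocardial-like and lymphatic endothelial-like cells. Ehd2 was highest in capillary endothelial-like cells too, at 1433 CPM, against 861.3, 575.1 and 479.5 CPM in the arterial, endocardial-like and lymphatic classes. Cavin1 split the endothelium into pairs, with 1349 and 1344 CPM in capillary and arterial cells and 497.1 and 501.9 CPM in endocardial-like and lymphatic cells. Cavin2 was high in each of them, at 2394, 1006, 1541 and 1502 CPM in the same order of classes, above every smooth muscle-like, pericyte-like and fibroblast-like sum. Cavin3 was higher in arterial and lymphatic cells, at 563.95 and 544.5 CPM, than in capillary and endocardial-like cells, at 303.7 and 279.3 CPM. Pacsin2 stood at 244.7, 399.9, 143.04 and 350.4 CPM in the capillary, arterial, endocardial-like and lymphatic classes, and their median cells held 12.7, 418.3, 2.54 and 178.9 CPM. Cav3 was at 0 counts in the arterial, endocardial-like and lymphatic sums, which allows up to 0.586, 0.169 and 1.05 CPM at the upper end of the Poisson interval, and at 0.849 CPM in capillary cells. Unnamed cluster 5, with 1015 CPM of the 5 cardiomyocyte markers in the same mouse, had 3412 CPM of Cav1 and 2049 CPM of Cavin2, close to the capillary values.

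Per kilobase of exon, Cavin2 and Cavin3 traded places between the classes. The ratio of Cavin2 to Cavin3 was 0.110, 0.113 and 0.0234 in smooth muscle-like cells of mice 1, 2 and 3, against 1.75, 1.26 and 1.57 in pericyte-like cells. Every pericyte-like ratio was above 1 and every smooth muscle-like ratio well below it, without overlap. Fibroblast-like cells lay between, at 0.219, 0.286 and 0.0745, and the endothelial classes held 4.29 in capillary, 3.00 in endocardial-like, 1.501 in lymphatic and 0.971 in arterial cells. Cluster 6, which raised smooth muscle and pericyte markers together, was intermediate with 0.540 and 0.667 in mice 1 and 2. The same cluster held 1257 and 930 CPM of Cav1, against 1220 to 1792 CPM in smooth muscle-like and 90.6 to 260.6 CPM in pericyte-like sums. Its Cavin2 was at 554.3 and 541.2 CPM, against 29.6 to 132.02 CPM in smooth muscle-like and 288.4 to 656.5 CPM in pericyte-like sums. In mouse 2 its Cav1 lay below every smooth muscle-like sum, and its Cavin2 above the pericyte-like sum of that mouse. Of its cells 12 of 77 and 3 of 21 carried over 500 CPM of the 6 endothelial markers. Doublets called in the whole table numbered 7. Mixed wells in this cluster were not tested for beyond that call.

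**Figure D5:**
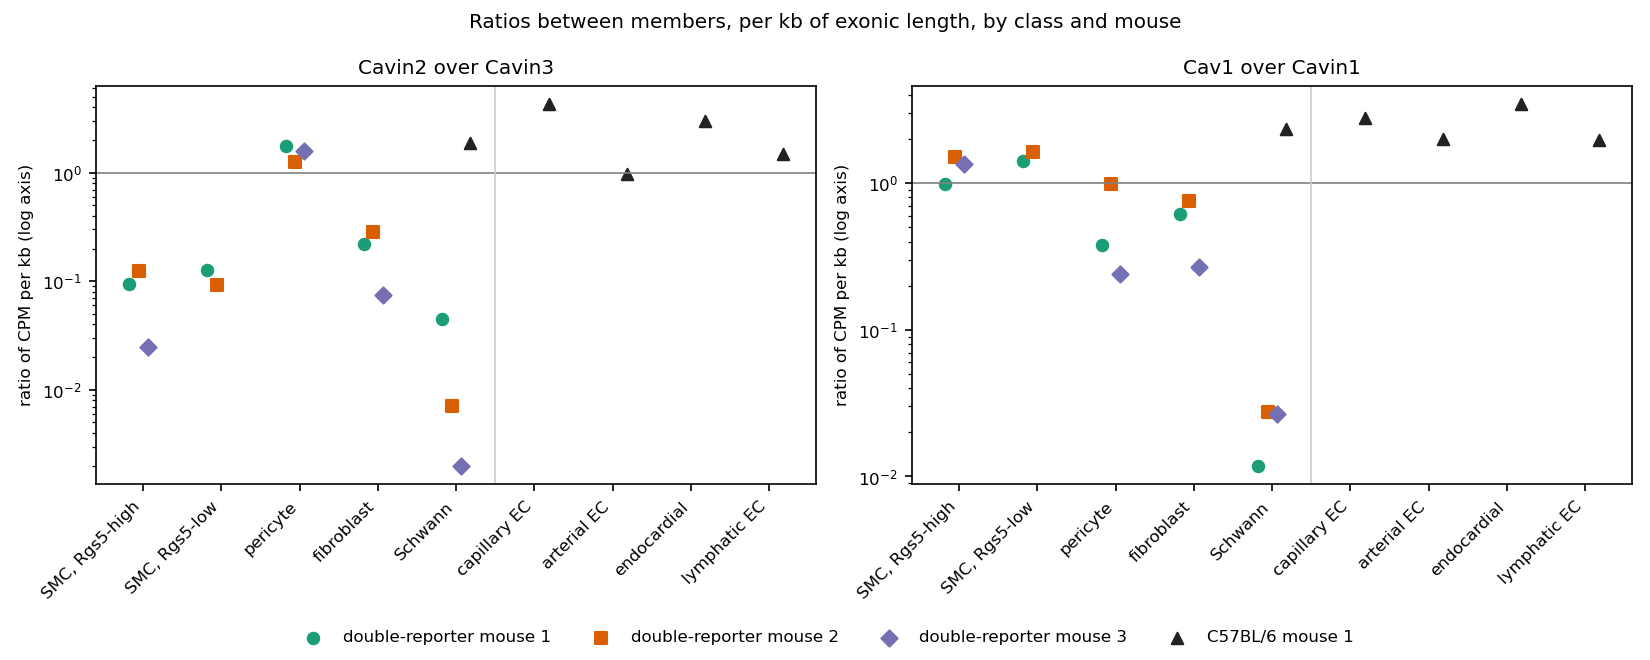
Ratio of Cavin2 to Cavin3 (left) and of Cav1 to Cavin1 (right), each in CPM per kilobase of exon on a log axis, by class and mouse. The first ratio is 0.0234 to 0.113 in whole smooth muscle-like sums, drawn here by Rgs5 level, and 1.26 to 1.75 in pericyte-like sums, and the second is lowest in the Schwann-like cells of the double-reporter mice.

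Across the cells of 1 class and mouse, the members were only weakly correlated. The median Spearman rho over the pairs of members ran between -0.008 and 0.176 in 14 sets of at least 20 cells, and such weak values in sparse counts are no finding. Cav1 and Cav2 gave a rho of 0.398 in capillary endothelial-like cells of C57BL/6 mouse 1 (0.376 after thinning). This placed Cav2 at rank 2 of 2880 genes by its rho with Cav1. In the same mouse the pair gave 0.129 in cluster 5 and -0.136 in endocardial-like cells. The capillary value thus did not extend to these cells. A higher rho than the capillary one, 0.474, was found for Cav1 and Cav2 in cluster 6 of double-reporter mouse 2. That set held 21 cells, and Cav2 had rank 98 of 2568 genes there. The same pair gave 0.159, 0.246 and -0.043 in smooth muscle-like cells of mice 1, 2 and 3. Cav1 with Cavin1 gave 0.406 in the 51 pericyte-like cells of mouse 1 (0.550 after thinning), where most cells held few Cav1 reads. These values describe cells that share a mouse and plate.

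Across 19 sums of a mouse and a named class, which share mice and plates, Cav1 and Cavin1 were not the same pattern. The sums include the C57BL/6 Schwann-like and macrophage-like ones, where 11 of 13 and 3 of 6 cells carried over 500 CPM of the 6 endothelial markers. The part of these cells in the correlations was not tested. Cavin1 followed Ehd2 most closely, with a Pearson r of 0.962 on log2(CPM + 1), and gave 0.839 with Cavin3, 0.664 with Cav1 and 0.564 with Cavin2. Cav1 gave 0.804 with Cav2 and 0.789 with Cavin2. Among 4913 genes other than the members, averaging at least 50 CPM, the 5 most like Cav1 were Bnip2, Plcb4, Tsc22d1, Gadd45g and Tspan12, with r between 0.840 and 0.909. Those most like Cavin1 were Hspb1, Rheb, Cd200, Ywhaq and Osmr, with r between 0.861 and 0.932. These are descriptions over sums chosen by class.

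Other genes around the caveola were read from 4 lists. Of 12 relatives of the members (other EHD, pacsin, dynamin and flotillin genes, Bin1 and Cavin4) 10 could be tested, and in smooth muscle-like against pericyte-like cells 2 rose and 0 fell beside 2.06% of all genes called, the flotillins Flot1 and Flot2, which scaffold membrane microdomains without caveolin. Flot1 averaged 117.8 ± 16.2 CPM in smooth muscle-like and 28.4 ± 15.6 CPM in pericyte-like cells, and Flot2 292.4 ± 12.6 CPM in smooth muscle-like and 82.3 ± 43.8 CPM in pericyte-like cells (SD, n = 3 mice each; edgeR adjusted p = 0.0191 and 0.0481). Flot1 was higher still in Schwann-like cells, at 401.3 ± 50.6 CPM, and was lower in smooth muscle-like cells than there, with a log2 change of -1.73 (edgeR adjusted p = 0.0211). The median change of the 10 relatives was 0.91, beside 0.40 over all genes. Pacsin3, the muscle pacsin, averaged 147.5 ± 30.6 CPM in pericyte-like cells and 29.4 ± 11.5 CPM in fibroblast-like cells (SD, n = 3 mice each; edgeR adjusted p = 0.0335), and Flot1 was lower in pericyte-like cells, with a log2 change of -2.65 (edgeR adjusted p = 0.00498).

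Of 20 receptors, channels and enzymes reported in caveolae 19 could be tested. None passed between smooth muscle-like and pericyte-like cells, 2 rose in smooth muscle-like over fibroblast-like cells, 4 rose over Schwann-like cells, and 3 rose in pericyte-like over fibroblast-like cells, with none lower (edgeR). In the same order of comparisons 2.06, 2.80, 7.90 and 3.95% of all genes tested were called in either direction. Cd36, a fatty acid transporter that is also strong in endothelium, averaged 260.4 ± 212.6 CPM in smooth muscle-like cells and 6.73 ± 2.98 CPM in fibroblast-like cells (SD, n = 3 mice each; edgeR adjusted p = 0.00341). Itgb1, an integrin subunit, averaged 1331 ± 364.1 CPM in smooth muscle-like and 585.3 ± 86.5 CPM in fibroblast-like cells (edgeR adjusted p = 0.00749). Cacna1c, the L-type calcium channel, averaged 106.8 ± 104.03 CPM in smooth muscle-like and 0.595 ± 0.608 CPM in Schwann-like cells (edgeR adjusted p = 0.0023). Ednra, the endothelin A receptor, averaged 1301 ± 634.3 CPM in pericyte-like cells and 86.5 ± 10.2 CPM in fibroblast-like cells (edgeR adjusted p = 0.0498). The median change of the list was -0.52 between smooth muscle-like and pericyte-like cells, beside 0.40 over all genes, and 1.30 between pericyte-like and fibroblast-like cells, beside -0.56.

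None of 14 genes of cholesterol and sphingolipid supply, the lipids caveolae are rich in, passed in any of the 6 comparisons (edgeR), and their median change was lowest against Schwann-like cells, at -1.64 beside 0.39 over all genes. Of 13 clathrin coat genes, which serve the other main route of endocytosis, 1 passed in any comparison, against fibroblast-like cells, where 2.80% of all genes were called. Epn2, an epsin, averaged 311.3 ± 76.9 CPM in smooth muscle-like cells and 95.3 ± 6.74 CPM in fibroblast-like cells (SD, n = 3 mice each; edgeR adjusted p = 0.0449). Between Rgs5-high and Rgs5-low cells none of the 4 lists held a called gene (edgeR).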

How the data were processed

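The authors deposited raw counts, whole numbers for each gene in each cell. The tools named in the submitters' processing notes, without versions, are featureCounts of Subread, Bowtie2, Bowtie and bcl2fastq, and the builds named there are GRCm38 and mm10. No source used here gives the strand setting or the filters on cells. A read is not a molecule, since the protocol carries no molecular identifiers, so binomial and Poisson intervals cover counting error only. Total counts per cell ran between 50476 and 811982.

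Members, gene lists and markers were chosen with earlier results of these data known. Cells were clustered with scanpy 1.11.5 and leidenalg 0.10.2 at resolution 1, from 2000 variable genes and 30 components, with 20435 genes withheld (members, lists, markers, Rgs5, sex-linked, mitochondrial, ribosomal and predicted genes). A cluster was named from at least 3 raised markers. Names rebuilt in this way may differ from the study's. The 7 doublets called were kept and left out in an alternative.

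For each class of a mouse with at least 5 cells the counts were added up and tested with edgeR 4.0.16 in R 4.3.3 (quasi-likelihood test, TMM scaling, filterByExpr, the mouse as block), with Benjamini-Hochberg adjustment over all genes tested and a threshold of 0.05. Each mouse is 1 replicate, and classes of a mouse share it, which is where the block comes from. As a check of this pairing, deviations from the class means over 8376 genes correlated between classes of the same mouse with a median of 0.0641 over 12 pairs, and 3 pairs exceeded 0.1. CPM are summed counts scaled to a total of 1000000, and exon lengths came from the reference annotation of GRCm38. Thinning drew 50000 counts per cell. Alternatives were DESeq2 1.42.0, limma 3.58.1 on mean cell CPM, other scalings, filters, resolutions and Rgs5 cuts, and omission of each mouse. The code was tested on simulated data. Named list genes were up to 2 per list and direction with the largest change among those called with a mean log2 CPM of at least 5. Genes most like Cav1 or Cavin1 were the 5 with the highest Pearson r, among genes other than the members averaging at least 50 CPM.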

Additional observations from a re-analysis of the deposited data

Results flagged for a closer look

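Of 4 mice that entered no comparison, the cells of 3 held Cav1 reads above the limit that a count of 0 allows. The 3 cells of ACTA2GFP mouse 1, of clusters 5 and 6, had 521.7 CPM of Cav1, against a limit of 7.05 CPM. The 4 cells of C57BL/6 mouse 2, of which 3 were in cluster 5 and 1 was fibroblast-like, had 2209 CPM, against a limit of 13.5 CPM. The 3 cells of CSPG4dsRED mouse 1, in cluster 5 and the endocardial-like class, had 5065 CPM, against a limit of 16.6 CPM. The 1 macrophage-like cell of C57BL/6 mouse 3 had 0 counts of Cav1, which allows up to 50.7 CPM. No group held enough mice for a test of single outlying mice.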

How the results depend on the processing

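Of all recomputed log2 changes of members, 89.8% kept their direction and their side of the threshold, 58 no longer passed, 17 newly passed and 16 changed sign; the cause was not tested. Values below are the percent of genes called, in the order smooth muscle-like against pericyte-like, fibroblast-like and Schwann-like, pericyte-like against fibroblast-like, Rgs5-high against Rgs5-low and Rgs5-high against pericyte-like cells. Without the replicate block they were 2.45, 2.67, 9.22, 4.35, 0.244 and 2.11%, and the members called numbered 3, 4, 8, 1, 0 and 4, as with it. Without the block 1 sign turned, that of Cav2 between Rgs5 levels, at -0.063.

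Leaving out 1 mouse gave 0.131 to 0.715, 0.317 to 0.933, 2.59 to 3.92, 0.801 to 1.55, 0 to 0.0416 and 0.291 to 1.07%, and 0 to 2, 0 to 2, 4 to 6, 0 to 0, 0 to 0 and 1 to 4 members. DESeq2 called 11.7, 8.72, 18.6, 14.7, 2.83 and 11.2%. A fit of the 2 classes alone called 1.42, 5.47, 5.17, 2.57, 0.00724 and 1.135%. limma called 6.08, 7.17, 13.8, 10.9, 0.686 and 6.19%, and the deeper cells (at least 100000 counts and 2000 genes) gave 1.14, 1.49, 5.48, 2.32, 0.0235 and 1.15%. Both the deeper cells and the fit of 2 classes called 6 members against Schwann-like cells. At least 10 cells per sum gave 1.14% against pericyte-like cells and 2.20% between pericyte-like and fibroblast-like cells. With cells over 500 CPM of endothelial or cardiomyocyte markers left out, 0.586, 3.40 and 0.373% were called against fibroblast-like and Schwann-like cells and between Rgs5 levels. The members called were 0 against fibroblast-like and 2 against Schwann-like cells, and the 3 pericyte-like comparisons could not be fitted. These fits had 9 sums, against 12 or 14 in the main fits. Between Rgs5 levels the narrower marker filter, chosen after seeing the data, gave 0.0411%, no filter on low counts 0.154%, and Rgs5 cuts at 100 and 2000 CPM 0.0173 and 0.582%. DESeq2 and limma called 6 (1 of them lower) and 5 members (0 lower) against pericyte-like cells, and 5 (2 lower) and 2 (both lower) between pericyte-like and fibroblast-like cells. There 0 were called under RLE scaling, library size, no filter, 10 cells per sum, the fit of 2 classes, the deeper cells, the narrower marker filter and, also chosen after seeing the data, without fibroblast-like cluster 4.

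Pericyte-like over fibroblast-like, Cav1 turned to 0.15 without cluster 4 and ran from -0.49 to 0.21 with 1 mouse left out. Cavin1 turned to 0.12 under RLE scaling, 0.11 with DESeq2, 0.012 in the deeper cells and 0.034 without cluster 4, and ran from -0.34 to 0.15 with 1 mouse left out. Ehd2 turned to -0.039 without the filter, -0.037 in the deeper cells and -0.043 under the narrower marker filter, and ran from -0.053 to 0.25 with 1 mouse left out. Between Rgs5 levels Ehd2 ran from -0.20 to 0.047 with 1 mouse left out. With the wider marker filter Cavin2 turned to -1.04 and Pacsin2 to -2.69. The median change of all genes in that fit was -3.08, against 0.0032 in the main fit, and both members lay above it. As the mean over cells, Rgs5-low levels were 384.5 CPM for Cav2, 133.6 for Cavin2, 556.3 for Cavin3, 833.6 for Ehd2 and 486.01 for Pacsin2, Rgs5-high Cavin3 was 710.8, Schwann-like Ehd2 188.04, and cluster 6 Cavin2 576.5 and Ehd2 630.9. Cells with Cav1 reads were, after thinning, 21.5% of Schwann-like, 91.99% of cluster 6, 52.6% of fibroblast-like and 99.5% of smooth muscle-like cells, and cells with Cav3 reads 7.69% of fibroblast-like cells.

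With 3 mice, and 9 and 13 pericyte-like cells in mice 3 and 2, the intervals of Cav2, Cav3 and Cavin2 were wide.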

Other observations

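Most single smooth muscle-like cells held reads of most members, as did fibroblast-like, pericyte-like and cluster 6 cells. The median number of members read per cell, without thinning, was 6.5, 7 and 6 of 8 in smooth muscle-like cells of double-reporter mice 1, 2 and 3. It was 7, 6 and 5 in fibroblast-like cells, 6, 5 and 6 in pericyte-like cells, and 5, 3.5 and 3.5 in Schwann-like cells. Cluster 6 had medians of 7 and 6 in mice 1 and 2. Macrophage-like cells of mouse 3, where 30 cells were found, held 22.7 CPM of Cav1, of which 88.3% came from a single cell, and their median cell held 0 CPM. Between the 2 smooth muscle-like clusters, Cav3 stood at 69.7 and 120.4 CPM in cluster 9 of mice 1 and 2, against 23.1 and 34.6 CPM in cluster 1, while Cav1 stood at 1491 and 1677 CPM in cluster 9, against 1622 and 1842 CPM in cluster 1. These are values with no test.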
